A study of Homo sapiens with 7 samples.

Results

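The human genes named ZNF500 to ZNF799 were followed in HEK-293 cells kept in acidified medium or treated with a splicing kinase inhibitor. The group holds every gene of the deposited table whose symbol lies in that number range, with or without a final letter. That gave 218 of 19978 genes, each taken by name and not by its measured value. The number range itself was chosen with earlier results of these data known. HEK-293 is an established cell line from human embryonic kidney. Control cells (2 samples) were kept for 48 h in medium of pH 7.4 with the solvent DMSO. Acidosis cells (3 samples) had medium of pH 6.6 with DMSO for the same time, and SRPIN340 cells (2 samples) had medium of pH 7.4 with 10 µM SRPIN340 in DMSO. SRPIN340 inhibits the kinases that phosphorylate serine- and arginine-rich splicing factors, and the study set it beside acidosis for that reason. The samples are numbered repeats of 1 cell line, so the results hold for this line only.

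Most ZNF proteins carry C2H2 zinc fingers, short loops in which a pair of cysteines and a pair of histidines hold a zinc ion while the loop reads DNA bases. Many also carry a KRAB box, a domain near the start of the protein that recruits TRIM28 and, through it, the histone methyltransferase SETDB1 to silence the bound DNA, often a transposable element. KRAB zinc finger genes are known for tandem clusters on chromosome 19, for low expression and for short-lived messages. In these members a KRAB box was found in 144 proteins and not in 74, by a protein search with the KRAB region of ZNF10. The members had a median of 10 fingers, from 0 to 34. Chromosome 19 held 112 of them, and the other members were spread over 16 further chromosomes.

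Fingers and the linkers that join them follow a shared pattern, and in close relatives the text is nearly the same, which bears on how reads are assigned. The first complete unit of 3 members is shown here to make that visible, from the canonical GENCODE release 44 coding sequence on GRCh38, 5′ to 3′ on the coding strand. Capitals mark the codons of the linker, in ZNF780A (chr19:40075866-40075943, minus strand, exon 6 of 6), ZNF780B (chr19:40036283-40036360, minus strand, exon 5 of 5) and ZNF697 (chr1:119623479-119623556, minus strand, exon 3 of 3).
ZNF780A: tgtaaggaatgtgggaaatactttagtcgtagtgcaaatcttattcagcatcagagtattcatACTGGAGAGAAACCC
ZNF780B: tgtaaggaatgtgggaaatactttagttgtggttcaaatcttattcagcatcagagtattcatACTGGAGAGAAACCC
ZNF697: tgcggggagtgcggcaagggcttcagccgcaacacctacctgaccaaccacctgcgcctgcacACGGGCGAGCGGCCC
The units of the neighbours ZNF780A and ZNF780B shared 75 of 78 bases at the same position, while ZNF697 shared 43 of 78 with ZNF780A. Over whole canonical transcripts the sharing was smaller. Of the stretches of 31 bases in a tested member, a median of 3.81% also occurred in the canonical transcript of another gene of the table. The share was under 1% in 67 of 199 tested members and over 10% in 54, of which 11 were among the members called lower in acidosis and 5 among those called higher. It was 92.3% in ZNF709, nearly all of it with a gene listed without a symbol, and 11.6% in ZNF780A. Counts of members with a high share depend on how ambiguous reads were divided.

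Of the 218 members, 199 passed the filter on low counts and were tested. The other 19 had a mean of at most 0.217 CPM, and 2 of them had no count in any sample. CPM here are the usual depth-scaled counts, with library totals corrected by TMM, a scaling that centres the typical gene. Library totals lay between 13615816 and 24110460 counts, and the acidosis group held both of the smallest. TMM factors were 1.172 to 1.21 at pH 7.4 and 0.7823 to 0.8001 in acidosis, so values in acidosis are relative to the typical gene. Scaled by library totals alone, the typical gene had a log2 fold change of -0.63 in acidosis, and of -0.05 with TMM. Of 7 HEK-293 markers, VIM, KRT8, KRT18, NEFL, NEFM and LHX1 were above 10 CPM in every sample and PAX2 lay between 1.19 and 7.06. PECAM1, ALB, MYH7, CD3E and PTPRC, which mark cells the culture should lack, were below 1 CPM in every sample. COL1A1 of fibroblasts was present in all samples at 27.9 to 65.6 CPM. In acidosis VIM and NEFM were called higher (log2 1.65 each) and PAX2 lower (log2 -1.93), also by library totals alone (1.07, 1.08 and -2.50). COL1A1 and PTPRC were called higher (log2 1.02 and 2.12) but not by library totals alone (0.44, and 1.55 with adjusted p 0.124). KRT8, NEFL, KRT18 and LHX1 were not called (log2 0.57, 0.66, -0.26 and 0.11) and had 0.00, 0.09, -0.83 and -0.47 by library totals alone. The part of these genes in the results was not tested.

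Acidosis lowered more of these genes than it raised. Against control, 52 of 199 members were called lower (26.1%) and 21 higher (10.6%). Scaled by library totals alone, 81 were lower (40.7%, beside 35% of all genes) and 10 higher (5.03%, beside 5.48%). A call needed a p under 0.05 after Benjamini-Hochberg adjustment over all genes, and a change larger than 1 on the log2 scale. Of all 14863 genes tested, 19.1% were called lower and 14.4% higher. These shares are not matched for level, with a median in control of 14.2 CPM for members and 24.8 CPM for all genes. By mean in the SRPIN340 samples, 35.3%, 27.9% and 19.6% of members were lower at 3 to 10, 10 to 30 and 30 CPM or more. All genes at those levels had 29%, 23.8% and 14.7%. Below 3 CPM the shares were 17.2% and 17.1%. The members' median log2 fold change was -0.29, beside -0.05 for all genes, and the middle 50% of members lay between -1.11 and 0.54. With the fold limit dropped, 79 members were lower (39.7%, beside 34.2% of all genes) and 54 higher (27.1%, beside 32.5%). Since all tests are on bulk RNA, fewer cells of a type and less RNA per cell cannot be told apart.

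The summed level of all members was higher in acidosis in CPM and lower as a share of the deposited counts. It was 5468 and 5271 CPM in control, 5382 and 5468 CPM with SRPIN340, and 6412, 6538 and 6390 CPM in acidosis. As a share of the deposited counts, the members held 0.641% and 0.623% in control but 0.505%, 0.523% and 0.5% in acidosis. The direction of the sum therefore depends on the scaling. In CPM the mean sum was 1077 higher in acidosis than in control, and ZNF711, ZNF529, ZNF664, ZNF697, ZNF592 and ZNF516 made up 1097 of this, while the other 212 members together came to -19 (rounded values). In acidosis 199, 195 and 195 members had over 3 counts, with library totals of 21370143, 13615816 and 14870301, against 204 to 207 members in the other samples. SRPIN340 replicate 2, at 21788457 counts, had 206. The part of depth in this was not tested.

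ZNF658, a zinc-responsive regulator of ribosome biogenesis genes, had the largest fall among members with a mean of at least 3 CPM. It measured 6.74 and 6.42 CPM in control and 0.772, 0.826 and 0.086 CPM in acidosis (log2 fold change -3.50, SE 0.441, adjusted p 7.05e-05). ZNF786, at chr7:149069641-149090782 on the minus strand, fell from 9.4 and 10.1 CPM to 1.07, 1.47 and 0.86 (log2 -3.12, SE 0.231, adjusted p 1.83e-06). ZNF549, at chr19:57527325-57557542 on the plus strand, fell from 15.7 and 15.9 CPM to 1.66, 2.94 and 1.63 (log2 -2.95, SE 0.23, adjusted p 2.6e-06). Each of these genes encodes a KRAB zinc finger protein, and in each the lowest control sample was over 5 times the highest acidosis sample.

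ZNF780A and ZNF780B, neighbours on the minus strand of chromosome 19 and both with a KRAB box, fell together. ZNF780A went from 41.3 and 30.5 CPM to 6.53, 6.34 and 4.3 (log2 -2.64, SE 0.185, adjusted p 1.29e-06). ZNF780B went from 44 and 49 CPM to 3.74, 13 and 11.4 (log2 -2.35, SE 0.35, adjusted p 2.16e-04), with acidosis replicate 1 below the other two. They were the most abundant of the 8 named lower members. ZNF587B, ZNF765 and ZNF688 completed the 8, with log2 fold changes of -2.57, -2.06 and -2.05. ZNF587B lies over ZNF586 on the same strand, and ZNF765 over ZNF525, so these counts rest on how reads were divided. ZNF563 and ZNF572 fell to 3 counts or fewer in each acidosis sample from 1.07 and 0.871 CPM in control. Against a floor of 3 counts per library they were at least 4.51-fold and 3.67-fold lower. The median over all tested members was -0.29 with both at that bound too.

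**Figure D1:**
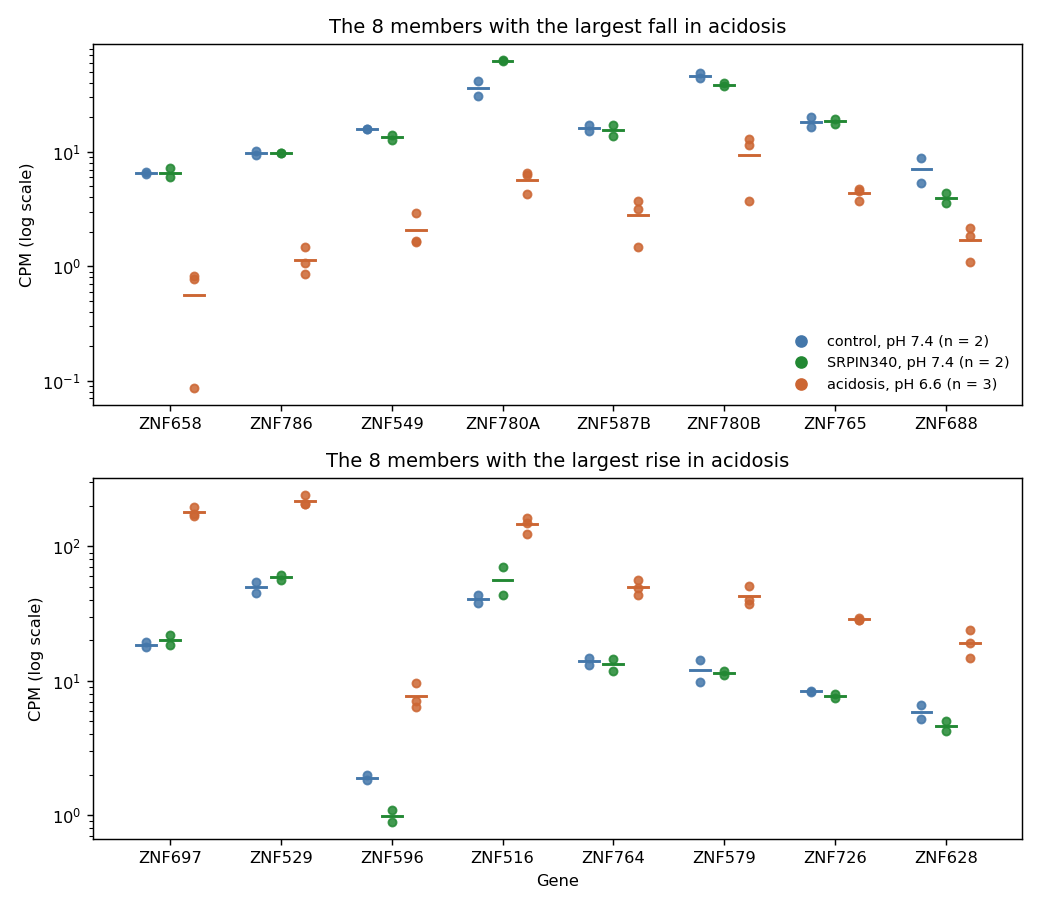
CPM on a log axis in each of the 7 samples for the 8 members with the largest fall (top) and the 8 with the largest rise (bottom) among those called with a mean of at least 3 CPM. Points are samples and lines are group means, and in all 16 genes the acidosis points lie apart from the control points.

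ZNF697 rose most. It has 11 fingers and no KRAB box found, and lies at chr1:119619377-119648266 on the minus strand. Its level was 19.3 and 17.8 CPM in control and 167, 195 and 175 CPM in acidosis (log2 3.27, SE 0.117, adjusted p 2.47e-08). ZNF529, a KRAB member at chr19:36534774-36605276 on the minus strand, rose from 54.7 and 45.1 CPM to 208, 243 and 205 (log2 2.13, SE 0.117, adjusted p 2.74e-07). With a mean of 125 CPM over all samples, ZNF529 was among the 8 members above 100 CPM.

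ZNF516, known from brown fat as an activator of thermogenic genes, rose from 37.9 and 43.6 CPM to 150, 163 and 124 (log2 1.83, SE 0.196, adjusted p 2.27e-05). ZNF764 rose from 14.8 and 13.1 CPM to 56.6, 43.2 and 48.9 (log2 1.83, SE 0.156, adjusted p 4.63e-06). The low-level ZNF596 rose from 1.98 and 1.83 CPM to 9.56, 7.07 and 6.36 (log2 2.01, SE 0.292, adjusted p 1.84e-04). ZNF579, ZNF726 and ZNF628 had log2 fold changes of 1.82, 1.77 and 1.72. ZNF726 shares 26.2% of its 31-base stretches with other genes, most of them with its relative ZNF254. ZNF697, ZNF516, ZNF579 and ZNF628 have no KRAB box, so 4 of the 8 named higher members lack one, against none of the 8 named lower ones. Over all calls the contrast was smaller, with a KRAB box in 40 of 52 lower members (76.9%) and 12 of 21 higher ones (57.1%). Of the 199 tested members 128 have the box. ZNF572, which fell but was kept out of the named 8 by its low level, has none.

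The KRAB box split the members. Of 128 tested members with the box, 40 were called lower (31.2%) and 12 higher (9.38%), with a median log2 fold change of -0.37. Of 71 without it, 12 were lower (16.9%) and 9 higher (12.7%), with a median of 0.07. Read against the 19.1% and 14.4% of all genes, the members with a KRAB box were above the background for lower calls, and those without it were near the background in both directions. The same split held outside the number range. Among ZNF genes with other numbers, 50 of 180 with a KRAB box were lower (27.8%) with a median of -0.32, and 16 of 92 without it (17.4%) with a median of 0.14. These are counts, with no test of the split.

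Level differed between these sets and is given beside the split. The median level in control was 13 CPM for tested members with the box and 25.3 CPM for those without it. Members were therefore also divided by their mean in the SRPIN340 samples, which do not enter the fold change of acidosis against control but share in the estimate of spread behind its p-values. At 3 to 10 CPM, 15 of 38 KRAB members were lower (39.5%), beside 29% of all genes at that level. At 10 to 30 CPM it was 16 of 50 (32%) beside 23.8% of all genes, and at 30 CPM or more 6 of 17 (35.3%) beside 14.7%. Below 3 CPM it was 3 of 23 (13%) beside 17.1%. The share of lower calls among KRAB members was thus above that of all genes of like level in 3 of 4 bins. Members without the box had 23.1%, 16.7% and 11.8% lower in the upper 3 bins, each below the share of all genes, and 2 of 6 (33.3%) below 3 CPM, above it.

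**Figure D2:**
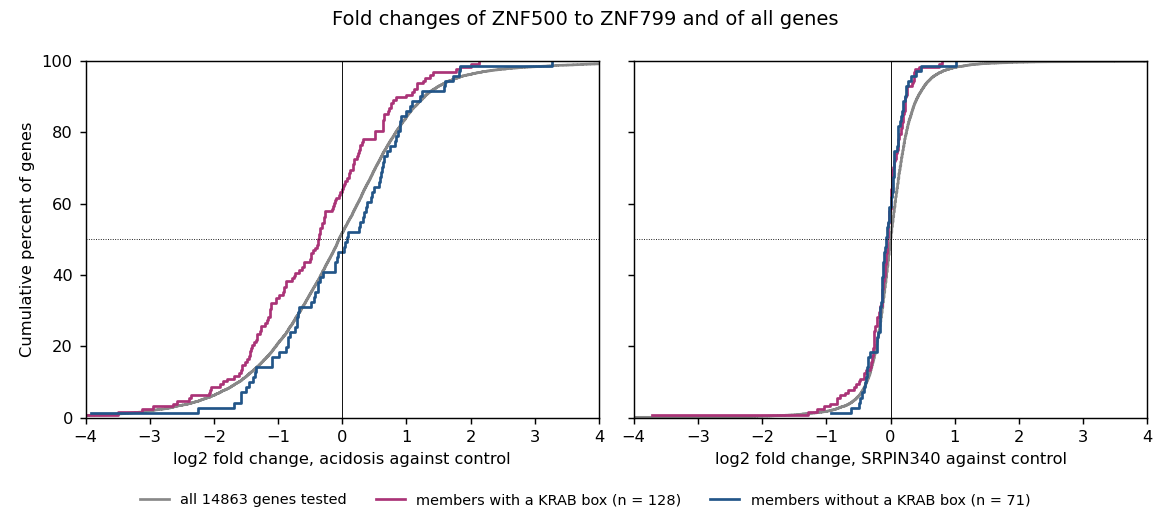
Cumulative percent of genes against log2 fold change in acidosis (left) and with SRPIN340 (right), for all 14863 genes tested (grey), 128 members with a KRAB box (purple) and 71 without (blue). In acidosis the purple curve lies left of the others, with medians of -0.37 against 0.07 and -0.05, and with SRPIN340 all curves cross 50% close to 0.

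The number of fingers gave a less regular picture. Over all genes, 19.1% were called lower and 14.4% higher. Members with 16 or more fingers had 10 of 31 lower (32.3%) and a median log2 fold change of -0.74. Members with 11 to 15 fingers had 16 of 55 lower (29.1%), those with 6 to 10 fingers 19 of 79 (24.1%), and those with 0 to 5 fingers 7 of 34 (20.6%). The last share was close to that of all genes. None of the 34 members with the fewest fingers was called higher. With the fold limit dropped 9 were (26.5%, beside 27.1% of all members and 32.5% of all genes). In acidosis against SRPIN340, 2 were called higher (5.88%, beside 14.9% of all genes). The medians did not follow this order, at -0.08 for 11 to 15 fingers, -0.05 for 6 to 10 and -0.45 for 0 to 5.

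Promoters are shown for members that moved far in each direction and whose annotated start in RefSeq is the start of the gene. Each line holds the 250 bases before the start, 5′ to 3′ on the gene's strand, from RefSeq on GRCh38.p14. Capitals mark the GC box (GGGCGG), the ETS core (CCGGAAG) and the CCAAT box (CCAAT), found on either strand. ZNF697 (chr1:119648267-119648516, minus strand) and ZNF628 (chr19:55476367-55476616, plus strand) were higher in acidosis, and ZNF780A (chr19:40090944-40091193, minus strand) and ZNF780B (chr19:40056232-40056481, minus strand) were lower.
ZNF697: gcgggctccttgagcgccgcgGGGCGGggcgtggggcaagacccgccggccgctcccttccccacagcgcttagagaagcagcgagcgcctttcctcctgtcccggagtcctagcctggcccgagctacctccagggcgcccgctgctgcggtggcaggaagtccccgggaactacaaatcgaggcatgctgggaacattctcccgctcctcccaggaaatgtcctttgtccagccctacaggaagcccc
ZNF628: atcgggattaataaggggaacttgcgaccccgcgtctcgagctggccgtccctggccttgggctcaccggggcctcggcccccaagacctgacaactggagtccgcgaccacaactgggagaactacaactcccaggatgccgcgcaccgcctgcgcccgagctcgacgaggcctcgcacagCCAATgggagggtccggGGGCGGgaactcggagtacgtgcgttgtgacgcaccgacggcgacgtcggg
ZNF780A: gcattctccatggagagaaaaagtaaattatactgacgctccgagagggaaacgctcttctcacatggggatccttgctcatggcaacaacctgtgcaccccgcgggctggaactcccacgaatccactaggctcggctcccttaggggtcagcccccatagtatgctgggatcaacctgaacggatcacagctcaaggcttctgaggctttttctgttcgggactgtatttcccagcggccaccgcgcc
ZNF780B: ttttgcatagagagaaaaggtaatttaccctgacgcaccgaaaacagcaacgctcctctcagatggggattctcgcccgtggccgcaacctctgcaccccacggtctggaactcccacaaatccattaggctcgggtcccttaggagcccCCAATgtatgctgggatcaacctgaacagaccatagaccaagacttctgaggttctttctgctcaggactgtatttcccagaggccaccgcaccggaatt
A promoter window was matched for 180 members. For 143 of them the last 30 of the 50 bases that RefSeq gives after the start lie in the gene's canonical transcript, and for the other 37 the window may belong to another start. The GC box was present in 18 of 19 promoters of members called higher (94.7%) and in 23 of 42 of those called lower (54.8%), beside 60.6% of member promoters and 56.7% of 15327 promoters of genes in the table. The median GC content of these windows was 62.4% for higher and 60% for lower members. The ETS core was in 27.8% of member promoters and in 12% of all, with 31.6% for higher and 23.8% for lower members. The CCAAT box was in 47.2% of member promoters and 34.8% of all, and stood in 54.2% of those with a KRAB box and 33.3% of those without. The other 5 motifs searched on both strands were each in under 7% of member promoters. They were the cAMP response element (TGACGTCA, 2.78% of members and 2.36% of all), the AP-1 site (TGACTCA, 2.22% and 3.16%), the E-box (CACGTG, 4.44% and 7.86%), the NRF1 site (GCATGCGC, 6.11% and 3.71%) and the YY1 site (AAGATGGC, 3.33% and 1.38%). Among the 143 windows, an alternative added after seeing the data, the GC box was in 17 of 17 for higher members and 18 of 31 for lower ones (58.1%), beside 65% of members and 59.5% of all genes. The ETS core was there in 35.3% for higher and 32.3% for lower members, and the CCAAT box in 64.7% and 45.2%. The differences between these sets were not tested, 8 motifs were searched, and genes outside the members were not split by call. The lower members printed here have no GC box, while lower ZNF765 and ZNF688 have 4 and 2. A match describes the letters only, and binding was not measured.

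Lower calls were not more frequent on chromosome 19, a difference that was not tested. Of 105 tested members there, 26 were lower (24.8%) and 12 higher (11.4%), and of 94 on other chromosomes 26 were lower (27.7%) and 9 higher (9.57%). KRAB members were lower at 28.1% on chromosome 19 (25 of 89) and at 38.5% elsewhere (15 of 39). Members without the box were lower at 6.25% there (1 of 16) and at 20% elsewhere (11 of 55). The 1003 other genes tested on chromosome 19 had 13.6% lower and 17.8% higher calls and a median of 0.22.

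Some of its runs held calls in both directions and others in 1 direction only. The largest run of members, with gaps under 1 Mb, holds 29 genes from ZNF628 to ZNF584 (chr19:55476617-58431736). Of these, 6 were lower (20.7%, beside 24.8% of members on the chromosome) and 6 higher. The run at chr19:36182276-37817300 had 4 lower and 1 higher of 16 tested, and that at chr19:19785839-23945159 had 1 and 2 of 10. Those at chr19:11483427-12633840 and chr19:8806170-9675100 each had 1 lower and 1 higher, of 10 and 5 tested. The run from ZNF577 to ZNF761 (chr19:51804816-53461862) holds 19 KRAB genes with 5 lower (26.3%, beside 28.1% of KRAB members on the chromosome) and 0 higher. In the run ZNF546, ZNF780B and ZNF780A (chr19:39984134-40090943) all 3 were lower, with a median log2 fold change of -2.35. Both members ZNF599 and ZNF792 (chr19:34758073-34964229) were lower as well, and of ZNF574 and ZNF526 (chr19:42068477-42228201) 0 were lower and 1 higher.

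Some neighbours moved in opposite directions. On chromosome 16, ZNF764 (chr16:30553764-30558374) and ZNF688 (chr16:30569672-30572734), both on the minus strand, are 11298 bases apart. ZNF764 rose by 1.83 on the log2 scale as given above. ZNF688 measured 5.4 and 8.85 CPM in control and 1.84, 1.1 and 2.15 CPM in acidosis. On chromosome 19, ZNF566 fell by 1.4 on the log2 scale while ZNF529, 44872 bases away, rose by 2.13. Similar pairs were ZNF699 and ZNF559 (1.16 and -1.28, 13934 bases apart) and ZNF586 and ZNF552 (1.42 and -1.17), whose spans overlap. In all, 7 pairs of adjacent members were called in opposite directions, 6 of them with a gap under 1 Mb and the widest 1977534 bases apart. In 14 pairs both members were called lower (10 of them under 1 Mb) and in 2 both were called higher, and since most calls were lower, no preference is read from these counts.

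**Figure D3:**
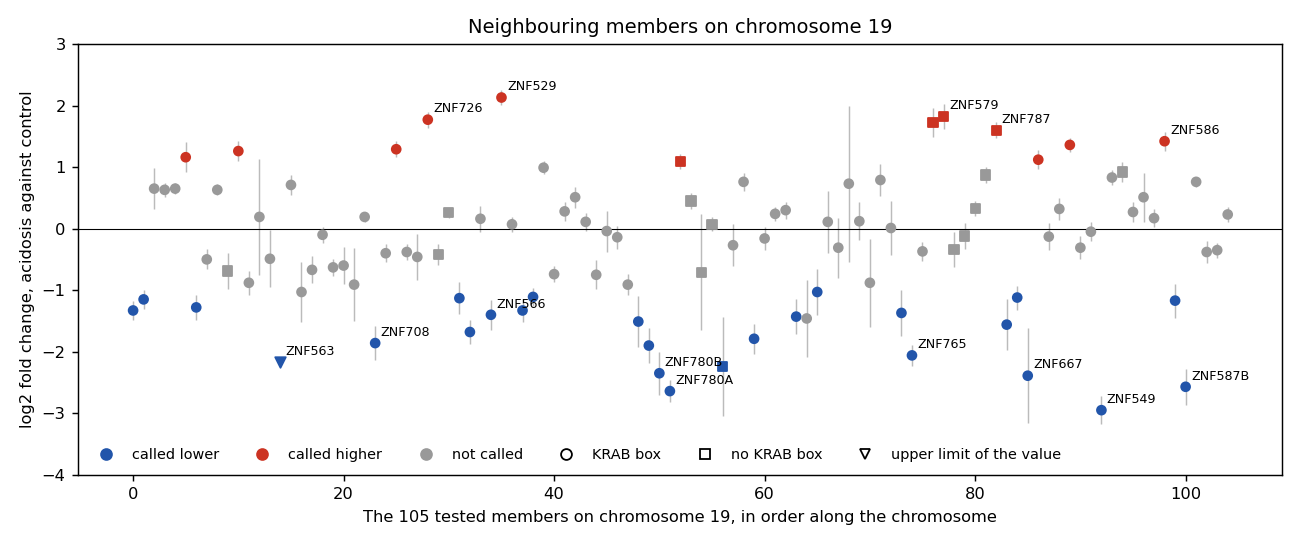
Log2 fold change in acidosis against control for the 105 tested members on chromosome 19, ordered along the chromosome and evenly spaced, with bars for the standard error. Blue points (26 called lower) and red points (12 called higher) are interleaved in some stretches, while other stretches hold blue calls only, and the triangle for ZNF563 is an upper limit, since its acidosis samples were at the counting floor.

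SRPIN340 changed few members. None of 199 was called lower or higher by edgeR, and none by DESeq2, where 0.195% of all genes were called lower and 0.128% higher by edgeR. At an unadjusted p under 0.05 there were 18 members (9.05%, beside 17.6% of all genes), and the median log2 fold change was -0.05 beside 0.00 for all genes. With the fold limit dropped, ZNF503, ZNF703 and ZNF711 passed an adjusted p under 0.05, which is 1.01% of members lower and 0.503% higher, beside 1.53% and 0.767% of all genes.

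ZNF503 and ZNF703 are relatives of the NET family, which act in development as corepressors, and neither had a C2H2 finger by the search used here. ZNF503 measured 110 and 112 CPM in control and 57.8 and 58.9 CPM with SRPIN340 (log2 -0.93, SE 0.0902, adjusted p 0.00225). In acidosis it measured 55, 48.7 and 52.7 CPM (log2 -1.09, SE 0.0823, adjusted p 2.12e-06). With TMM scaling, acidosis and SRPIN340 samples lay close to each other and did not differ by the test (log2 -0.16, adjusted p 0.118). This does not show that they were alike. The TMM factors were 1.21 and 1.209 with SRPIN340 but 0.7823 to 0.8001 in acidosis. Scaled by library totals alone, the acidosis samples lie further below the SRPIN340 samples, so the closeness depends on the scaling. Without SRPIN340 replicate 1 the SRPIN340 result had an adjusted p of 0.0597.

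ZNF703 went different ways in the 2 treatments. It measured 162 and 180 CPM in control, 127 and 117 CPM with SRPIN340, and 261, 218 and 241 CPM in acidosis. Relative to control it was lower with SRPIN340 (log2 -0.49, adjusted p 0.0405) and higher in acidosis (log2 0.49, adjusted p 9.38e-04), the latter turning to -0.09 when libraries were scaled by total count only. Acidosis and SRPIN340 differed by 0.98 (adjusted p 9.86e-06).

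ZNF711 is an X-linked gene whose protein brings a histone demethylase to CpG-rich promoters and whose loss causes intellectual disability. It was the most abundant member, at 681 and 585 CPM in control, 826 and 839 CPM with SRPIN340, and 934, 999 and 998 CPM in acidosis. It rose with SRPIN340 (log2 0.40, adjusted p 0.0378) and in acidosis (log2 0.63, adjusted p 3.87e-05), where total-count scaling gave 0.05 (adjusted p 0.516). The adjusted p with SRPIN340 was over 0.05 with replicate number as a block (0.118) and without any of 5 single samples (0.0551 to 0.275). ZNF780A, by contrast, measured 63.1 and 62.1 CPM with SRPIN340, above both control samples (log2 0.80, adjusted p 0.0516), while it fell in acidosis.

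**Figure D4:**
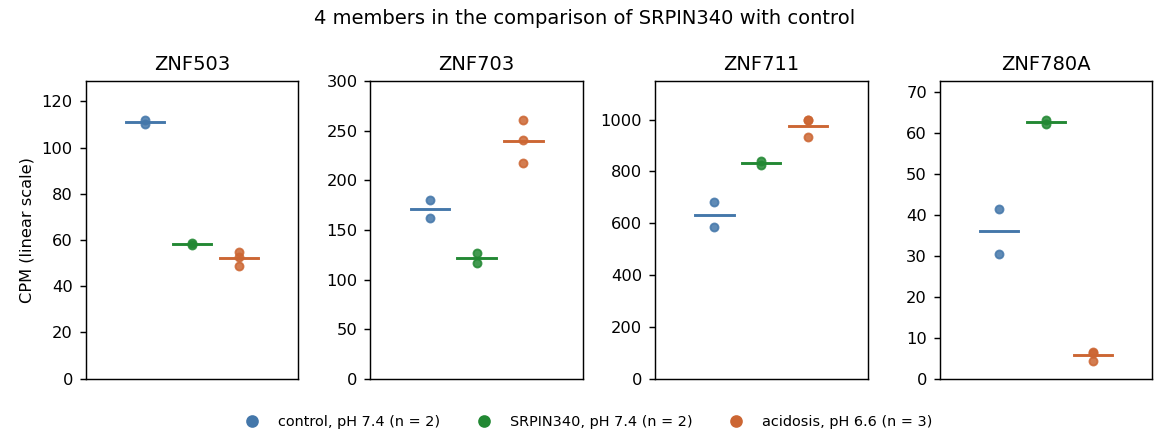
CPM on linear axes from 0 in each sample for ZNF503, ZNF703, ZNF711 and ZNF780A, with lines at the group means. With SRPIN340, ZNF503 and ZNF703 lie below their control samples and ZNF711 and ZNF780A above them.

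Acidosis was also set against SRPIN340, a comparison that shares its acidosis samples with the first. Here 50 members were lower (25.1%, beside 19.7% of all genes) and 25 higher (12.6%, beside 14.9%). Scaled by library totals alone, 83 were lower (41.7%, beside 37% of all genes) and 9 higher (4.52%, beside 5.21%). ZNF609 and ZNF649 were higher against SRPIN340 (log2 1.02 and 1.25) and did not pass the fold limit against control.

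Members with individually described roles moved in both directions. Those listed below with a KRAB box, ZNF568, ZNF746 and ZNF675, all had negative log2 fold changes in acidosis, as did 82 of 128 tested KRAB members. Of these named genes only ZNF568 passed the fold limit. ZNF598 is the ubiquitin ligase that recognises collided ribosomes. It measured 64.1 and 73.7 CPM in control and 114, 99.8 and 97 CPM in acidosis (log2 0.59, adjusted p 8.96e-04), and 0.01 with total-count scaling. ZNF622 and ZNF593 act in maturation of the large ribosomal subunit. ZNF622 had a log2 fold change of 0.27 (adjusted p 0.0455, over 0.05 under 10 alternatives), turned to -0.31 by total-count scaling. ZNF593 had 0.05 (adjusted p 0.803), turned to -0.52 by that scaling.

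ZNF638, a nuclear protein that silences unintegrated retroviral DNA together with the HUSH complex, fell from 149 and 148 CPM to 83.9, 88.5 and 75.2 (log2 -0.85, SE 0.0866, adjusted p 1.62e-05). ZNF521, a regulator of blood and neural progenitors, fell from 27.3 and 19.1 CPM to 9.98, 7.9 and 5.25 (log2 -1.57, SE 0.257, adjusted p 4.08e-04). ZNF568, a KRAB gene whose mouse counterpart represses a placental promoter of Igf2, fell from 47.6 and 41.4 CPM to 18.8, 24.6 and 18.6 (log2 -1.11, SE 0.142, adjusted p 7.53e-05). A gene without a symbol overlaps ZNF568 and shares 14.5% of its 31-base stretches.

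ZNF746, a substrate of parkin that represses PGC-1α, fell from 29.1 and 33.6 CPM to 15.8, 16.5 and 15.5 (log2 -0.98, adjusted p 4.61e-05). ZNF652, a partner of the corepressor CBFA2T3, fell by 0.44 (adjusted p 0.00275). ZNF675, an inhibitor of TRAF6 signalling, had -0.38 (adjusted p 0.0245, and 0.0514 by DESeq2). ZNF536, a regulator of neural differentiation, had -0.42 (adjusted p 0.0503). ZNF750, a regulator of epidermal differentiation, was not tested, with at most 0.19 CPM in any sample.

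ZNF592, ZNF687 and ZNF532 are related proteins that bind ZMYND8, a reader of chromatin marks that joins them to the NuRD deacetylase complex. ZNF592 measured 77.5 and 75.5 CPM in control, 75.2 and 74.3 CPM with SRPIN340, and 229, 227 and 232 CPM in acidosis (log2 1.58, SE 0.0668, adjusted p 5.82e-08). ZNF687 rose from 50.1 and 51.5 CPM to 79, 82.9 and 77.1 (log2 0.65, adjusted p 8.95e-05). ZNF532 rose from 52.5 and 58.6 CPM to 89.8, 88.3 and 77.4 (log2 0.62, adjusted p 3.07e-04). With total-count scaling ZNF687 had 0.08 (adjusted p 0.455), ZNF532 had 0.04 (adjusted p 0.713) and ZNF592 had 1.01 (adjusted p 6.92e-07).

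ZMYND8 itself went the other way. It measured 62.5 and 67.3 CPM in control, 45.6 and 46.7 CPM with SRPIN340 (log2 -0.49, adjusted p 0.0596), and 12.1, 12.1 and 14.4 CPM in acidosis (log2 -2.34, SE 0.111, adjusted p 1.2e-07). In acidosis all 3 partners were above their control samples and ZMYND8 was below its own. The protein levels were not measured.

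**Figure D5:**
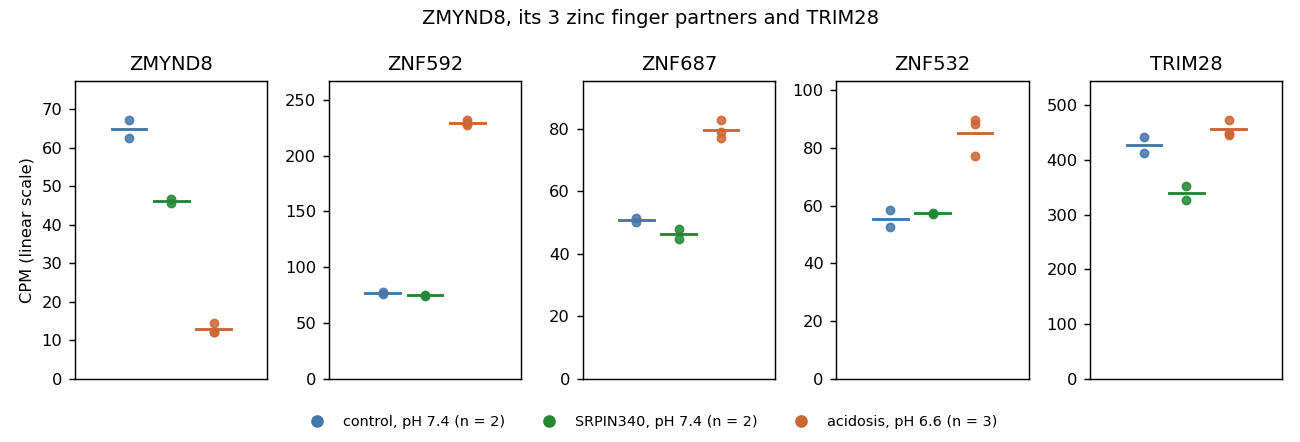
CPM on linear axes from 0 in each sample for ZMYND8, ZNF592, ZNF687, ZNF532 and TRIM28, with lines at the group means. In acidosis ZMYND8 lies at 12.1 to 14.4 CPM, below all other samples, while ZNF592, ZNF687 and ZNF532 lie above theirs and TRIM28 is at 445 to 473 CPM.

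A list of 24 chromatin genes was read beside the members. It holds corepressor machinery that KRAB proteins use, the HUSH complex, and also ZMYND8, UHRF1 and DNMT1. For short, all 24 are called corepressor genes here, so a change in one of them is not by itself a change in KRAB machinery. All 24 were tested, with 5 called lower (20.8%) and 1 higher (4.17%), beside 19.1% and 14.4% of all genes. With the fold limit dropped, 12 were lower (50%, beside 34.2% of all genes) and 5 higher (20.8%, beside 32.5%). Scaled by library totals alone, more of the list was called lower and the higher call was lost, with counts given below under the processing. TRIM28, the direct partner of the KRAB box, measured 413 and 442 CPM in control and 473, 449 and 445 CPM in acidosis (log2 0.09, adjusted p 0.237), and -0.48 with total-count scaling. SETDB1 had 0.21 (adjusted p 0.109), and -0.37 with that scaling. The median level in control was 168 CPM for the list and 24.8 CPM for all genes tested. Of all genes with an SRPIN340 mean of 30 CPM or more, 186 of 6723 were lower with SRPIN340 and no fold limit. On the list, with the same comparison and no fold limit, 3 of the 24 were lower (12.5%, beside 1.53% of all genes) and none higher. They were UHRF1 (log2 -0.44, adjusted p 0.0183), the NuRD subunit CHD3 (log2 -0.40, adjusted p 0.0354) and TRIM28 at 352 and 326 CPM (log2 -0.33, adjusted p 0.0467).

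The 5 lower genes were ZMYND8, the deacetylase HDAC2, the HUSH subunit TASOR, the maintenance methylation factor UHRF1 and the histone chaperone RBBP4. HDAC2 fell from 362 and 351 CPM to 145, 141 and 129 (log2 -1.36, SE 0.0669, adjusted p 1.4e-07). TASOR fell from 146 and 120 CPM to 53.8, 55.7 and 47.4 (log2 -1.35, SE 0.105, adjusted p 2.63e-06). The higher gene was CBX1, which encodes a form of heterochromatin protein HP1 (log2 1.30, adjusted p 2.11e-07), and had 0.73 with total-count scaling, under the fold limit. Its relative CBX5 lay just under the fold limit (log2 0.99, adjusted p 7.04e-07), and CBX3 had 0.10 (adjusted p 0.21). That scaling gave 0.42 for CBX5 and -0.47 for CBX3.

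Levels per length compare genes only as far as the deposited counts still follow transcript length, which is not known here. Per kilobase of canonical transcript, the 199 tested members had a median of 3.54 CPM over all samples, with the middle 50% between 1.68 and 6.98. By this mean over all samples, ZNF711 was highest at 184 CPM per kilobase, then ZNF664 at 66.9, ZNF703 at 56.3, ZNF580 at 33.9 and ZNF768 at 30.3. None of these 5 has a KRAB box. Within single groups the order differed. In control, ZNF703 (51.6) lay above ZNF664 (50.3), and ZNF503 (34.6) and ZNF511 (33.5) lay above ZNF580 (31.5). In acidosis the KRAB gene ZNF529 (42.5) lay above ZNF580 (39.4). ZNF664, a finger gene on chromosome 12 that the gene RFLNA overlaps on the same strand, rose from 228 and 206 CPM to 370, 395 and 384 (log2 0.82, SE 0.0741, adjusted p 7.06e-06). Scaled by library totals alone this rise is smaller, since the TMM factors given above were higher in control than in acidosis. ZNF580 and ZNF768 had log2 fold changes of 0.33 (adjusted p 0.0377) and 0.47 (adjusted p 8.45e-04), turned to -0.25 and -0.11 by total-count scaling. The adjusted p of ZNF580 was over 0.05 under 9 other alternatives.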

How the data were processed

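The authors trimmed the reads of poly(A)-selected RNA with Trimmomatic 0.39 and Trim Galore 0.6.6, used Salmon 1.5.1 with a Gencode GRCh38 transcriptome, and brought the transcript estimates to gene level by tximport. What they deposited is a table of estimated counts with 1 column per sample, not brought to a common depth. The tximport option is not given in the sources used here. At most 0.227% of values above 0 were whole (within 0.001), and the commonest value under 1.5 was 1.023 to 1.042 at pH 7.4 and 0.95 to 0.96 in acidosis. The values therefore carry a factor per sample and may be scaled by length, so 1 count is only about 1 read, which touches the limit of 3 counts and levels per length.

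Rounded values were tested by the quasi-likelihood method of edgeR 4.0.16 (R 4.3.3), after filterByExpr and TMM scaling, with Benjamini-Hochberg adjustment over 14863 genes. All 7 samples entered 1 fit without covariates. DESeq2 1.42.0 was an alternative, as were other scalings and filters, a fit of only the groups compared, the replicate number as a block, no fold limit and each replicate left out. Of 19978 identifiers, 19977 matched a symbol in GENCODE release 44. KRAB boxes were BLASTP hits (BLAST 2.17.0) at an E-value of at most 0.001 to the first 75 residues of ZNF10, and fingers were counted by a pattern of cysteines and histidines. Promoter windows and motifs were read with Python 3.11.15. The tests were also tried on simulated counts. Few genes were changed there, evenly up and down, so the trial does not bear on the choice of scaling. Promoters came from RefSeq, and 180 members matched by symbol.

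The number range and the gene lists were chosen with earlier results of these data known, and membership in the range then followed the name alone. Named genes were the 8 called members with the largest fall and the 8 with the largest rise in acidosis (mean of at least 3 CPM, groups apart), the member with the smallest adjusted p in each direction with SRPIN340, the 5 highest per length, 16 with described roles, and TRIM28, SETDB1 and the 3 most changed corepressor genes. ZNF563, ZNF572, ZNF566, ZNF699, ZNF559, ZNF586, ZNF552, ZNF609, ZNF649 and CBX5 were added after their values were seen, as were the other members of runs and the remaining called corepressor genes. The numbered repeats are biological repeats per the study's methods.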

Additional observations from a re-analysis of the deposited data

How the results depend on the processing

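Counts of members called in acidosis against control stayed within 48 to 56 lower and 20 to 22 higher when each replicate was left out, and were 50 lower and 23 higher with DESeq2. They moved with the scaling and the fold limit. With total counts only there were 81 lower and 10 higher (40.7% and 5.03%, beside 35% and 5.48% of all genes), and without the fold limit 79 and 54. Against SRPIN340 total counts gave 83 and 9 (41.7% and 4.52%, beside 37% and 5.21%), and no fold limit 76 and 60 (38.2% and 30.2%, beside 35% and 32.8%). With SRPIN340 against control, dropping the fold limit gave 2 lower and 1 higher, both shares below those of all genes (1.53% and 0.767%). With the 50 overlapped members left out, an alternative added after seeing the data, 43 of 150 were lower and 17 higher. Of the 24 genes of the corepressor list, 11 were lower and 0 higher with total counts only, beside 35% and 5.48% of all genes. Without the fold limit there were 12 and 5 (50% and 20.8%, beside 34.2% and 32.5%). The list had 2 higher with DESeq2, with RLE size factors and with a replicate block, and 1 to 2 higher with a replicate left out. With total counts only, the median log2 fold change of members was -0.859 in acidosis (all genes -0.626) and -0.012 with SRPIN340 (all genes 0.042). That scaling also turned the acidosis values of ZNF703 (-0.09), ZNF580 (-0.25), ZNF768 (-0.11), ZNF622 (-0.31), ZNF593 (-0.52), TRIM28 (-0.48) and SETDB1 (-0.37). ZNF593 ranged from -0.16 to 0.27 with a replicate left out. The cause was not tested beyond the scaling itself. Of 588 values of named genes under alternatives, 541 kept their direction and their side of the threshold, 33 kept their direction and went over the threshold, 5 came under it, and 9 turned.

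Replicate numbers do not mark a shared batch in the labels, and samples with the same number did not deviate together, with correlations from -0.115 to 0.063. With a replicate block, 51 members were lower and 21 higher in acidosis. Acidosis samples 2 and 3 were the shallowest, so members of a few CPM are measured least precisely there.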

Other observations

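Zinc finger genes named ZFP, ZSCAN, ZKSCAN or ZBTB, compared by name only, did not share the members' balance in acidosis. Of 85 tested, 21 were lower (24.7%) and 18 higher (21.2%), with a median log2 fold change of 0.19. ZNF genes with other numbers were close to the members, with 66 of 272 lower (24.3%) and 35 higher (12.9%) and a median of -0.21. Neither difference was tested.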
